A study of Sus scrofa domesticus with 4 samples.

Results

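The genes described here are antiviral effectors made in response to interferon and sensors of viral RNA, measured in uterine muscle explants of early pregnant gilts cultured with orexin B or without it. A list of 10 pig genes was taken (IFIT1, IFIT2, IFIT3, RSAD2, IFIH1, DDX58, MX1, MX2, OAS1 and OAS2), and a probe was a member if its annotation was a RefSeq mRNA of one of them. This gave 19 of 43603 probes, for 7 of the 10 genes and of 2971 genes named in this way on the array. IFIT1, IFIT3, RSAD2 and IFIH1 had 2 probes each, MX1 and OAS2 had 5 each, and MX2 had 1. IFIT2, DDX58 and OAS1 are in the gene table, but no probe was matched to them, and they were not analysed here. The genes were chosen with the orexin B over untreated ratios of these same arrays known, so those ratios are given as a description, with no test.

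Orexin B is a neuropeptide that acts through the orexin receptors, and the series asked what it does to gene expression in the porcine myometrium, the smooth muscle layer of the uterus. Tissue came from Large White x Polish Landrace gilts aged 7 to 8 months, on days 15 to 16 of pregnancy. Slices were preincubated for 2 h and then held for 24 h with 10 nM orexin B, or for the same time without treatment. Explants were set up in duplicate in 4 experiments with 4 gilts, and 4 Agilent pig arrays of 2 colours, numbered 1 to 4, each received both RNAs as 825 ng of labelled cRNA per dye. By the dye fields of the labels, orexin B explants were in Cy5 on arrays 1 and 3, and in Cy3 on arrays 2 and 4. Array 1 lay alone on one slide, and arrays 2, 3 and 4 shared another.

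Interferons bind receptors on the cell surface and, through kinases of the JAK family and transcription factors such as STAT2 and IRF9, switch on a large set of antiviral genes. Sensors such as IFIH1 (MDA5) and DDX58 (RIG-I) detect viral RNA in the cytosol and start interferon production, and they are themselves interferon-induced. In the pig, the conceptus secretes interferon gamma and interferon delta in the days around its attachment to the uterus, and interferon-stimulated genes are known to be active in the uterine wall at that time.

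Of 13 smooth muscle markers, the 9 with a probe were all bright enough to test, as the labelled tissue requires. A log2 ratio here is orexin B over untreated, after background correction and normalisation of each array, and probes were tested where at least 1 of the channels stood well above background throughout the 4 arrays. This kept 19879 probes. Between 48.7% and 54.3% of probes per array were well above background in the orexin B channel, against 37.6% to 58.2% in the untreated channel. In limma's moderated test 0 probes (0.0%), members included, had an adjusted p under 0.05, and the smallest was 0.596. An unadjusted p under 0.05 was found for 1534 probes (7.72%), of which 856 were higher with orexin B (4.31%). The number of arrays limits the precision.

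All 19 member probes passed the brightness criterion. In the orexin B channel all 19 were well above background on every array, and 17 were so in both channels. The 2 exceptions were probes of OAS2, one of them well above background in the untreated channel on 3 arrays and the other on 2. No member spot was saturated. MX1 probe 2 had no value on array 1, where its spot was marked as irregular. Gene values below are those of the brightest probe, called probe 1.

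The 7 genes were higher with orexin B on arrays 1, 2 and 4, and lay between -0.24 and 0.32 on the log2 scale on array 3. Their median log2 ratio was 0.87, or 1.83-fold, with array medians of 0.61, 1.56, -0.04 and 1.51 (SD 0.77, n = 4), against a median of 0.02 over all tested genes. Of 75 member values, 68 were above 0. The mean was above 0 in 19 of 19 probes, where 54.1% of all tested probes and 53.8% of all tested genes had a mean above 0. Read as Cy5 over Cy3 on all arrays, as the protocol text of the labels alone would have it, all 19 probe means were below 0, between -1.09 and -0.09. For a probe measured on all 4 arrays, this mean repeats the difference between dye orientations given below and is not a separate result. The deposited series table has the direction of the dye fields on all 4 arrays. In slices of whole tissue, more RNA per cell and more cells of a type cannot be told apart. Every gene was above 0 on arrays 1, 2 and 4, and 3 were above 0 on array 3, so that IFIT3, IFIH1 and MX1 were above 0 on all 4 arrays. Among all tested genes 8.47% were above 0 on all 4 arrays. Since the genes were chosen on this contrast, nothing is read from these counts.

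**Figure D1:**
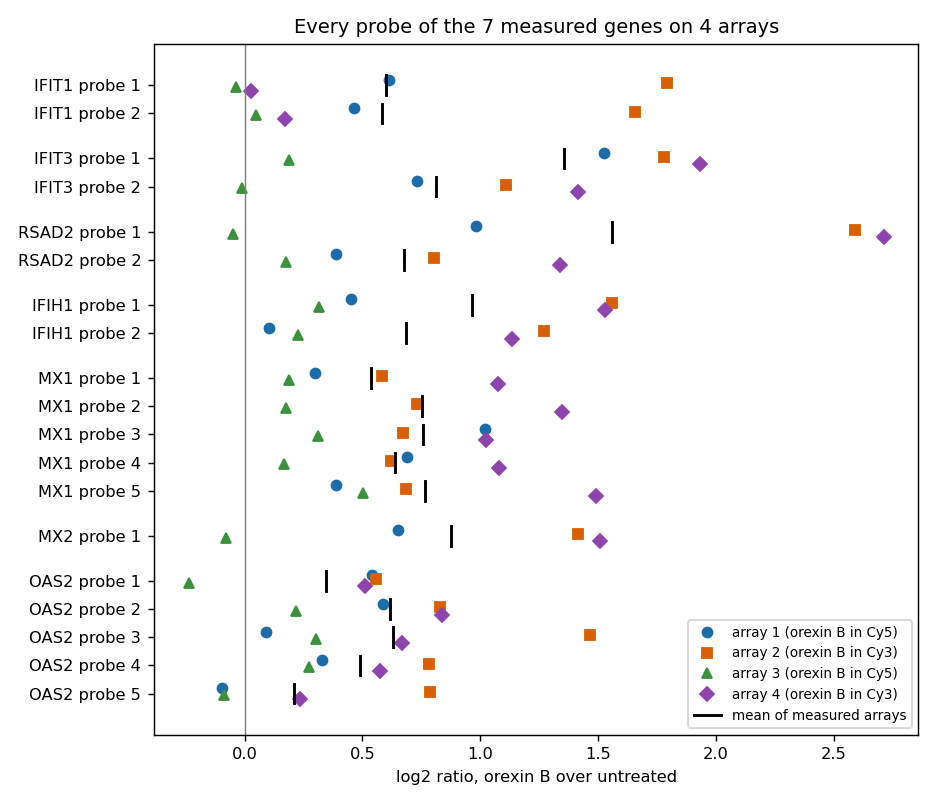
The log2 ratio of orexin B over untreated (horizontal axis) is plotted for each of the 19 probes of the 7 measured genes (rows), with a symbol for each of the 4 arrays and a bar for the mean over the measured arrays. Array 3 (triangles) runs from -0.24 at OAS2 probe 1 to 0.50 at MX1 probe 5, with 13 of 19 values above 0, and arrays 2 and 4 have all 19 values above 0.

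IFIT1 and IFIT3 belong to the IFIT family, proteins that bind viral RNA, alone or with each other, and block its translation. IFIT3 (NM_001204395) had log2 ratios of 1.53, 1.78, 0.19 and 1.93 on arrays 1 to 4, a mean of 1.36 ± 0.80 (SD, n = 4) or 2.56-fold. Its log2 intensity was 13.11, 15.04, 12.72 and 12.04 with orexin B, against 11.59, 13.26, 12.53 and 10.11 without treatment. At this probe IFIT3 was higher with orexin B within each array, least on array 3, yet the ranges of the treated and untreated levels overlapped. Its second probe gave lower ratios in the same order, 0.73, 1.11, -0.01 and 1.41. IFIT1 (NM_001244363), the founding member of the family, had 0.61, 1.79, -0.04 and 0.03, a mean of 0.60 ± 0.85 or 1.51-fold. Here array 4 was near 0 as well as array 3, while the other 6 genes had at least 0.51 on array 4, and the mean was 0.20 without array 2. Its second probe showed the same, at 0.47, 1.66, 0.05 and 0.17. IFIT1 log2 intensity was 12.45, 14.25, 12.67 and 11.30 with orexin B, against 11.84, 12.46, 12.71 and 11.28 in untreated slices. In the Sscrofa11.1 gene table IFIT1 and IFIT3 are direct neighbours, and IFIT2 lies beside IFIT3, with 0 protein-coding genes between them.

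RSAD2 encodes viperin, an enzyme that makes a chain-terminating nucleotide that stops viral RNA synthesis. RSAD2 (NM_213817) had the highest mean of the 7 genes, with log2 ratios of 0.98, 2.59, -0.05 and 2.71, a mean of 1.56 ± 1.33 (SD, n = 4). That is 2.95-fold on average, although the spread between arrays was nearly as large as the mean. RSAD2 log2 intensity was 12.09, 15.91, 12.74 and 13.51 in the orexin B channel, against 11.11, 13.31, 12.79 and 10.79 in the untreated channel. On array 4 the untreated level was the lowest of all, and on array 2 the treated level was the highest. Its second probe followed the same arrays at smaller sizes, 0.39, 0.80, 0.17 and 1.34, with a mean of 0.68. The probes of RSAD2 lay further apart than those of any other member, by 1.79 on array 2 and by 1.38 on array 4. With Agilent's own processed signals the second probe had a mean of 1.00.

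IFIH1, or MDA5, is the cytosolic sensor of long double-stranded RNA. IFIH1 (NM_001100194) had 0.45, 1.56, 0.32 and 1.53, a mean of 0.96 ± 0.67 (SD, n = 4) or 1.95-fold. It was above 0 on every array, also at its second probe, which had 0.11, 1.27, 0.23 and 1.14 and a mean of 0.68. IFIH1 log2 intensity was 11.97, 13.89, 12.21 and 12.36 with orexin B, against 11.52, 12.33, 11.89 and 10.83 without it. DDX58, the sensor of short RNA with a free triphosphate end, was not analysed here, so the sensors of the list are represented by IFIH1 alone.

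MX1 and MX2 are dynamin-like GTPases that hold up incoming virus particles or their nucleocapsids, and they are direct neighbours in the gene table. MX1 (NM_214061) had log2 ratios of 0.30, 0.58, 0.19 and 1.08 at its brightest probe, a mean of 0.54 ± 0.40 (SD, n = 4) or 1.45-fold. All 19 measured values of its 5 probes were above 0. The other 4 probes had means of 0.75, 0.76, 0.64 and 0.77, above that of the brightest one. MX1 log2 intensity was 15.75, 17.69, 16.32 and 16.42 in orexin B slices, against 15.45, 17.10, 16.13 and 15.34 in untreated slices. The mean of probe 1 was 0.36 without array 4 and 0.36 with median centring in place of the intensity-dependent normalisation. MX2 (NM_001097416), measured by a single probe, had 0.65, 1.42, -0.08 and 1.51, a mean of 0.87 ± 0.74 or 1.83-fold. Its log2 intensity was 10.66, 12.97, 11.09 and 12.03 with orexin B, against 10.01, 11.56, 11.17 and 10.52 without treatment. MX2 lay closer to the median profile of the 7 genes than any other member, with a root mean square difference of 0.08 over the 4 ratios.

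OAS2 is an enzyme that binds double-stranded RNA and then makes 2'-5' linked adenylates, messengers of the antiviral response. OAS2 (NM_001031796) had the lowest mean of the 7, with 0.54, 0.56, -0.24 and 0.51, a mean of 0.34 ± 0.39 (SD, n = 4) or 1.27-fold. It was 0.54 without array 3 and 0.20 with median centring. OAS2 log2 intensity was 13.95, 16.29, 15.54 and 14.12 in orexin B slices, against 13.41, 15.73, 15.78 and 13.60 in untreated slices. The span of about 2 log2 units between arrays 2 and 4 within either channel exceeded every treated-to-untreated difference of this gene. Its other 4 probes had means of 0.62, 0.63, 0.49 and 0.21, and the last of these, the dimmest, had values below 0 on arrays 1 and 3. With Agilent's processed signals that probe had a mean of 0.74. OAS1, its direct neighbour in the gene table, was not analysed here.

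**Figure D2:**
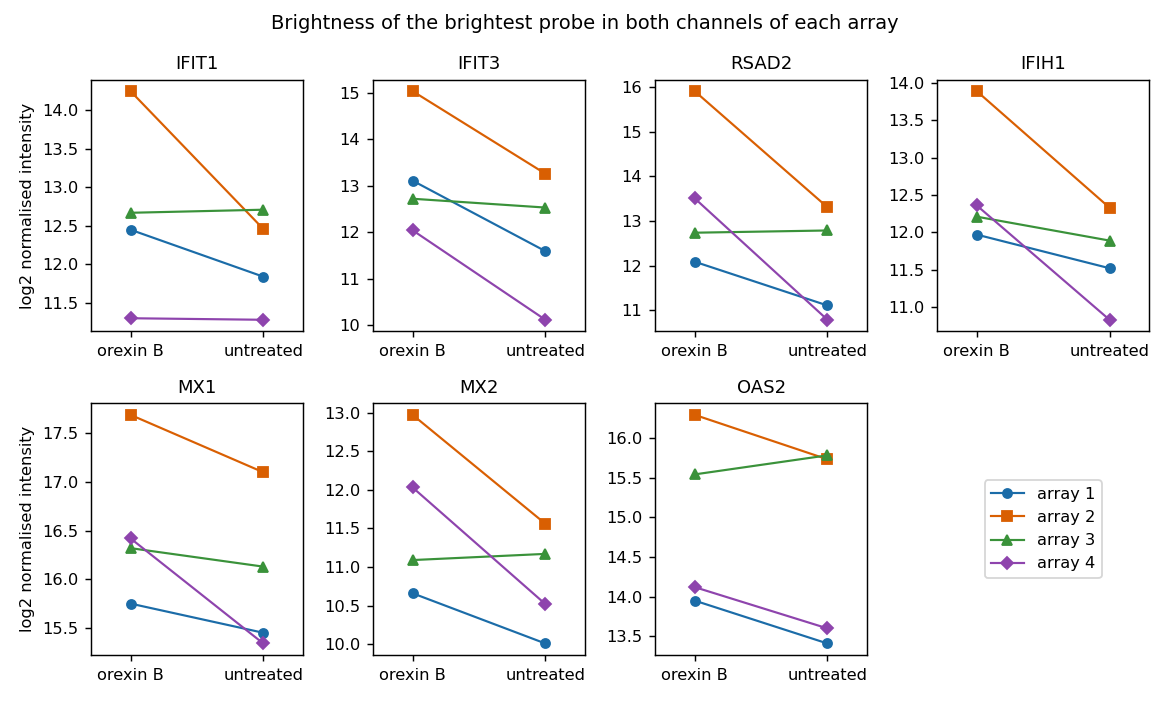
Each panel shows 1 gene, with the log2 normalised intensity of its brightest probe (vertical axis, a scale of its own in each panel) in the orexin B channel and the untreated channel, joined by a line for each of the 4 arrays. Lines slope down to untreated on arrays 1, 2 and 4, except for IFIT1 on array 4, and the lines start from levels far apart. On array 3 orexin B minus untreated runs from -0.24 for OAS2, whose line slopes up to untreated, to 0.32 for IFIH1.

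Probes of a gene share their RNA and are not replicates, but their spread shows how far a value depends on the probe. Where the probes lie on the transcript is not known here. The mean SD between probes of a gene on the same array was 0.09 for IFIT1, 0.18 for MX1, 0.20 for IFIH1, 0.27 for OAS2, 0.39 for IFIT3 and 0.70 for RSAD2. The mean SD of a probe between arrays was larger in each of the 6 genes with several probes, between 0.39 for OAS2 and 0.92 for RSAD2. Of the 7 values below 0, 6 were on array 3. Of 18 probes measured on all arrays, 14 had their lowest ratio on array 3 and 4 on array 1, against 26.0% and 20.8% of all tested probes. The highest ratio was on array 4 in 10 and on array 2 in 8, against 18.9% and 35.4% of all tested probes.

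The treated and untreated levels overlapped between arrays in all 19 member probes, in that not every treated level lay above every untreated level. Over all tested probes, only 1.15% had every treated level above every untreated level. Such overlap is thus the rule on these arrays, and it is not read as a trait of the members. The untreated slices alone showed a wide spread between arrays in the member probes. The untreated level enters the ratio but did not by itself choose the genes. The untreated log2 level of a member probe spanned a median of 1.92 over the 4 arrays, or 3.79-fold, with a range of 0.70 to 3.15 over probes. The median span of all tested probes was 0.65, or 1.56-fold. A span of at least 1 log2 unit was found in 18 of 19 member probes (94.7%), against 21.5% of all tested probes. A span of at least 2 was found in 9 (47.4%), against 2.14%. In the orexin B channel the median span was 2.34 for member probes and 0.53 for all tested probes.

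These untreated levels moved together across genes. Every member probe measured lay above its own mean on arrays 2 and 3 and below it on arrays 1 and 4. The median deviation was -0.66 on array 1, 1.10 on array 2, 0.31 on array 3 and -0.81 on array 4. On array 2, 15 of 19 probes exceeded the 95th percentile of all tested probes, and on array 4, 17 of 19 lay below the 5th percentile. Between its highest and its lowest array, the untreated level differed 8.89-fold for IFIT3, 5.74-fold for RSAD2 and 5.18-fold for OAS2. The span was 3.40-fold for MX1, 2.92-fold for MX2, 2.82-fold for IFIH1 and 2.70-fold for IFIT1. Of 18 complete probes, 15 had their highest untreated level on array 2 and 3 on array 3, and the lowest was on array 4 in 13 and on array 1 in 5. Among 19708 complete tested probes, the highest was on array 2 in 6306 and on array 3 in 4019. The lowest was on array 4 in 4123 of them and on array 1 in 4581. Untreated RNA was in Cy5 on array 2 and in Cy3 on array 3, the high pair, and in Cy3 on array 1 and in Cy5 on array 4, the low pair, so each pair held both dyes. Arrays 2, 3 and 4 shared a slide and included the highest and the lowest median. Each array holds another experiment, so a gilt and its array cannot be told apart. The source of these shared levels was not tested.

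**Figure D3:**
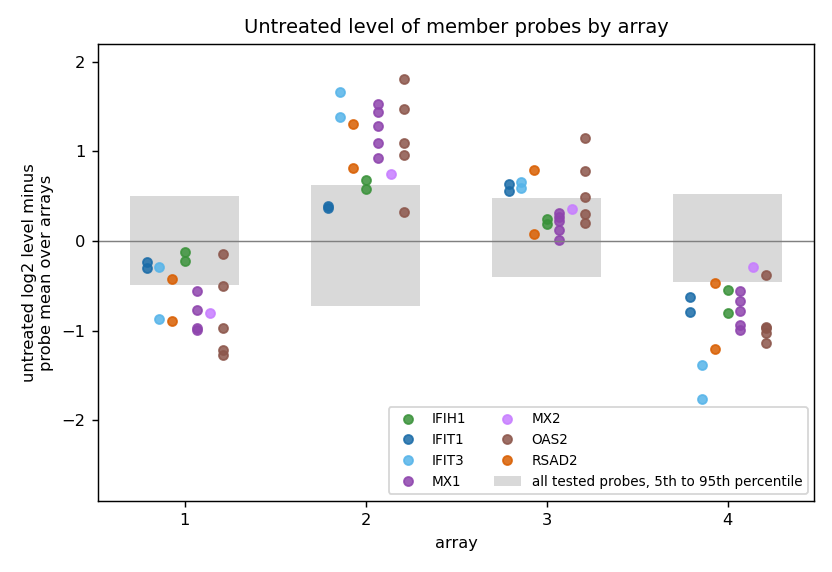
The untreated log2 level of each member probe minus that probe's mean over arrays (vertical axis) is shown for arrays 1 to 4, coloured by gene, with grey bars from the 5th to the 95th percentile of all tested probes. All member points are above 0 on arrays 2 and 3 and below 0 on arrays 1 and 4.

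The ratios differed by dye orientation in the same direction in every member probe. RSAD2 averaged 2.65 on arrays 2 and 4, with orexin B in Cy3, and 0.46 on arrays 1 and 3, with it in Cy5. IFIH1 averaged 1.54 and 0.38 on these pairs of arrays, IFIT3 1.86 and 0.86, and MX2 1.46 and 0.29. MX1 averaged 0.83 and 0.24, IFIT1 0.91 and 0.29, and OAS2 0.54 and 0.15. The lower value was on arrays 1 and 3 in 19 of 19 member probes, and 51.2% of all tested probes ran that way. In limma's fit with a dye term, 0 member probes passed an adjusted p of 0.05 for that term (0.0% of all tested probes), and 7 of 19 had an unadjusted p under 0.05, against 12.5% of all tested probes. The dye orientation and the gilts of those arrays cannot be told apart. At the brightest probe, both orientations had a mean above 0 for each of the 7 genes, though only 3 genes were above 0 on array 3. OAS2 probe 5 averaged -0.09 on arrays 1 and 3. The genes were chosen on these ratios, so nothing is read from their signs.

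The wider interferon pathway was followed from ligands to feedback. Transcripts of interferon ligands were not detectable at this brightness. IFNA1, IFNB1, IFNE and IFNG stood well above background on 0 of 4 arrays, with orexin B and without it. IFN-DELTA-1 was so on 0 arrays in the orexin B channel and on 1 in the untreated channel. None of these 5 was tested, and the other 7 listed ligands were not analysed here.

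Receptors, kinases and transcription factors of interferon signalling had a median close to 0, with gene means from -0.15 to 0.69. Of 19 listed, 15 were tested, 10 had a mean above 0 (53.8% of all tested genes had), 0 passed the adjusted threshold, and 1 was higher at an unadjusted p under 0.05, against 6.23% of all tested genes. Their median log2 ratio was 0.08, with array medians of -0.01, 0.36, -0.03 and 0.01. It was 0.02 without array 2 and 0.14 without array 4. IFNAR1, a chain of the type I interferon receptor, had -0.21, 0.02, 0.17 and 0.04, a mean of 0.00 ± 0.16 (SD, n = 4). IRF7, the factor that amplifies interferon production, had 0.20, 0.41, 0.06 and 0.56, a mean of 0.31 ± 0.22. It was lowest on array 3 and highest on array 4.

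Other nucleic acid sensors and their adaptors had a median of 0.25, with 6 of 7 tested genes above 0 of 20 listed, against 53.8% of all tested genes. The array medians were 0.11, 0.42, 0.02 and 0.32, 0 genes passed the adjusted threshold, and 2 of 7 were higher at the unadjusted one, against 6.23% of all tested genes. The median was 0.39 without array 1, 0.11 with no brightness filter and -0.08 as Cy5 over Cy3 on all arrays. DHX58 (LGP2), which tunes signalling by IFIH1 and DDX58, had 0.47, 0.58, 0.02 and 0.85, a mean of 0.48 ± 0.34 (SD, n = 4). DDX3X, an RNA helicase that also takes part in this pathway, had 0.40, 0.42, 0.30 and 0.47, a mean of 0.40 ± 0.07, and it was 0.62 with Agilent's processed signals and in the deposited series table. DDX3X therefore did not share the drop on array 3, and DHX58 did. The adaptors MAVS and MYD88 and the endosomal receptors TLR7, TLR8 and TLR9 were too dim to test.

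Other antiviral effectors had a median of 0.33, with 9 of 10 tested genes above 0 of 40 listed, against 53.8% of all tested genes. The array medians were 0.16, 0.47, -0.12 and 0.87. The median was 0.54 without array 3, 0.51 with Agilent's processed signals and -0.34 as Cy5 over Cy3 on all arrays. Of the 10, 2 were higher at an unadjusted p under 0.05 (6.23% of all tested genes were), 0 were lower at that threshold (4.24% were), and 0 passed the adjusted one. ISG15, a ubiquitin-like protein that is attached to other proteins, had 0.92, 0.00, 0.30 and 0.98, a mean of 0.55 ± 0.48 (SD, n = 4), and it was 0.36 with median centring and 0.06 as Cy5 over Cy3 on all arrays. Unlike the 7 member genes, ISG15 was at its lowest on array 2. USP18, which removes ISG15 from proteins and damps the type I receptor, had 0.25, 0.60, 0.30 and 0.85, a mean of 0.50 ± 0.28. The feedback inhibitors as a group had 4 of 10 tested, with a median of 0.30 and 3 with a mean above 0, against 53.8% of all tested genes. Of the 4, 2 were higher at an unadjusted p under 0.05 (6.23% of all tested genes were), and 0 passed the adjusted threshold. The group's medians by array were 0.15, -0.02, 0.19 and 0.59. Its list median was 0.11 with no brightness filter, 0.50 with a stricter one and -0.01 as Cy5 over Cy3 on all arrays. ISG15 and TRIM21 belong to both of these lists.

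**Figure D4:**
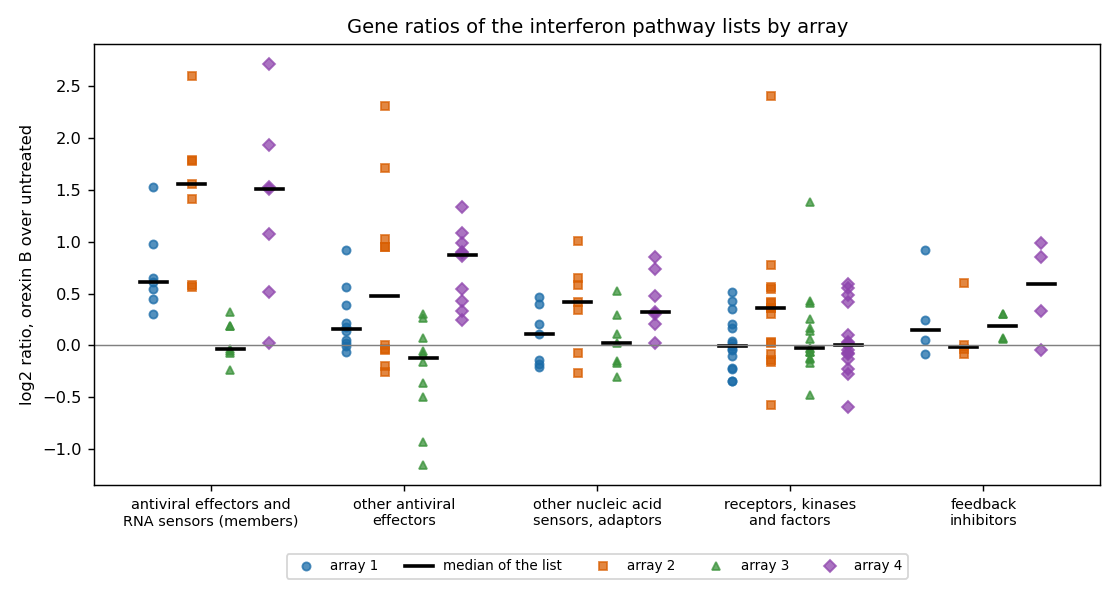
The log2 ratio of orexin B over untreated (vertical axis) is shown for each tested gene of 5 interferon pathway lists, with a column for each of the 4 arrays and a bar at the list's median on that array. The member medians are 0.61, 1.56, -0.04 and 1.51, and those of the other effectors are lower on each array. The medians of receptors, kinases and factors stay near 0 except for 0.36 on array 2, while single genes lie further out.

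Markers of other cell types ran with the member ratios on some arrays and not on others. Macrophage and monocyte markers (9 tested of 12) had a mean above 0 in 9, against 53.8% of all tested genes, and 8 of the 9 were higher at an unadjusted p under 0.05, against 6.23%. None passed the adjusted threshold. Their array medians were 0.69, 0.18, 0.86 and 0.76. Their summed intensity was 7574 to 17968 in orexin B slices, against 4580 to 10756 in untreated slices. The macrophage markers were highest on array 3, where the member genes were lowest. The neutrophil markers S100A8 and S100A12 (2 tested of 6, with S100A9 too dim) had array medians of 0.04, 1.502, -1.06 and 0.78. These medians were high and low on the same arrays as the member genes. The dip on array 3 was that of S100A8 at -2.01, while S100A12 had -0.11 there and -0.09 on array 1. Sums of these 2 markers were 697 to 8045 with orexin B, against 665 to 8668 without. Smooth muscle markers (9 tested of 13, none with a mean above 0) ran the opposite way, at 0.00, -1.13, 0.16 and -1.21, with sums of 344471 to 894256 with orexin B, against 640510 to 1105472 without. Fibroblast and stroma markers (4 tested of 9) had -0.02, -0.72, -0.0016 and -0.77, on arrays 2 and 4 the opposite way to the member genes. Epithelial markers (3 tested of 8) had 0.43, -0.26, -1.49 and 1.11, lowest on array 3 like the member genes. Endothelial markers (4 tested of 7) had 0.41, 0.19, 0.02 and 0.33, with the median also lowest on array 3. CDH5 and PECAM1 were lowest there, while CLDN5 was highest there at 0.78 and VWF was lowest on array 4 at -0.41. Conceptus trophoblast markers (4 tested of 10) had 0.19, 0.20, 0.24 and 0.12, with no such dip. T and NK cell markers (3 tested of 11) had 0.04, -0.16, 0.11 and 0.07, while their defining markers CD3D and CD3E were too dim to test. The B cell markers CD79A and MS4A1 were also too dim. The part of these cells in the member ratios was not tested.

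The genes outside the list whose 4 ratios lay closest to the median profile of the members were ranked by root mean square difference over the 4 arrays, among 1930 other genes with a median difference of 1.16. The closest was DDX46, a helicase of the spliceosome, at 0.18, with log2 ratios of 0.54, 1.67, 0.23 and 1.31. SRSF11, a splicing factor, followed at 0.27. LGALS9 (galectin-9) was at 0.34, OASL at 0.37, PNISR at 0.39 and BST2 (tetherin) at 0.39. These differences use the brightest probe of each gene. Averaging all tested probes of a gene lowered the mean log2 ratio of SRSF11 from 0.85 to 0.50. LGALS9 went from 0.76 to 0.41 and PNISR from 0.85 to 0.63, while DDX46, OASL and BST2 were unchanged. A gene with a single tested probe cannot change under this average, so the unchanged values are not read as agreement between probes. In the untreated channel OASL was well above background on only 3 arrays. OASL and BST2 are interferon-stimulated antiviral proteins of the other effector list. OASL had a mean of 0.68 ± 0.80 (SD, n = 4), which became 0.34 without array 2, 1.21 with Agilent's processed signals and -0.62 as Cy5 over Cy3 on all arrays. The likeness rests on 4 arrays, and the order of these genes was not tested.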

How the data were processed

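The deposited scanner files give each spot's median intensity and that of its local background in both colours. They were written by Agilent Feature Extraction (version 10.7.3.1), per the file headers. That software also wrote processed intensity values and log10 ratios, red over green, per the file headers, and the log10 ratios were not used. The log2 ratios of the deposited series table equal those of the processed signals after a sign change on arrays 2 and 4. Its column medians were -0.27, -0.08, -0.20 and -0.09.

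Direction follows the dye fields, although the labels' protocol text names only untreated RNA in Cy3. Background was corrected with normexp (offset 50), each array was normalised by loess, and lmFit and eBayes were applied to the log2 ratios in R 4.3.3 with limma 3.58.1 (3 residual degrees of freedom), two-sided, with Benjamini-Hochberg adjustment over 19879 probes. Control spots (1417) and marked spots (31 to 138 per array) were left out. Of 7033 probes with a RefSeq mRNA, 6599 had a symbol in the Sscrofa11.1 gene table. The brightest tested probe stood for each of 1959 tested genes. Log2 ratios of different arrays correlated at -0.18 to 0.36 across probes. All p-values reflect only the spread over these 4 arrays. The fit was tested on simulated ratios. Alternatives changed the background, normalisation, filter, signal source, dye term, direction, probe rule and arrays used.

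The members and lists were chosen with earlier results of these data known. Named by rule were all members, up to 4 genes of each wider list with all arrays of the same sign, IRF7, USP18, ISG15, IFNAR1, IFNG and IFNB1, and the 6 genes closest to the members' median profile. A gene that the rule also names is not reported here. Other genes were named after their values were seen. Coordinates are not given, since the build of the probe design is not given in the sources used here. Python 3.11.15 and matplotlib 3.10.9 drew the figures.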

Additional observations from a re-analysis of the deposited data

Results flagged for a closer look

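Sets of 4 array values were examined for 1 value far from the other 3, and 2 of 63 such sets had one, where chance gives about 1 in 20, or 3.15 sets. At the brightest probe of OAS2, array 3 had a log2 ratio of -0.24 while the other arrays lay between 0.51 and 0.56, so that the gap made up 0.942 of the whole range. The median of interferon receptors, kinases and factors was 0.36 on array 2, with the other arrays between -0.03 and 0.01, a gap of 0.918 of the range. STAT3, named after its values were seen, had 2.41 on array 2.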

How the results depend on the processing

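Each ratio pairs treated and untreated RNA of an array, so the main test is already a paired one. There is a single group of arrays, and no further pairing was run. The count of probes past the adjusted threshold was 0 under every alternative run. At an unadjusted p under 0.05, limma gave 1534 probes, 177 with median centring (172 higher and 5 lower, against 856 and 678), 2302 with no brightness filter, 2382 with a dye term and 726 to 1922 without 1 replicate, the fewest without replicate 4. All arrays were above 0 for 1773 probes, 954 with median centring, 2718 with no filter, 2813 on the shared slide alone and 2679 to 3454 without 1 replicate, where fewer arrays had to share the sign. The member genes above 0 on all arrays numbered 3 to 7 without 1 replicate, 7 being without replicate 3. The member median of 0.87 was 0.69 to 1.18 without 1 replicate. The deposited series table has the direction of the dye fields on every array. Read as Cy5 over Cy3 on all arrays, as the protocol text alone would have it, the median reversed to -0.50. IFIH1 was then -0.58, IFIT1 -0.31, IFIT3 -0.50, MX1 -0.29, MX2 -0.59, OAS2 -0.19, RSAD2 -1.09, DHX58 -0.24, DDX3X -0.048, IRF7 -0.18, USP18 -0.23 and DDX46 -0.55. Under the 14 other alternatives RSAD2 ran from 1.12 to 2.10, IFIT3 from 1.08 to 1.75, IFIH1 from 0.77 to 1.18 and MX2 from 0.66 to 1.19. MX1 ran from 0.36 to 0.69, IFIT1 from 0.20 to 0.81 and OAS2 from 0.20 to 0.54. Not all of these alternatives are separate checks. For these genes the dye term and the filter changes leave the mean as it was by construction. The shared slide alone is the run without replicate 1, and the deposited table repeats the processed signals. Except where the construction shows it, the cause was not tested. Spot brightness limits the dimmest OAS2 probe.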

Other observations

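The untreated intensity of the other antiviral effectors, summed over 10 genes, was 131000, 329300, 244800 and 166500 on arrays 1 to 4, higher on arrays 2 and 3. IRF7 had untreated intensities of 953, 2960, 1343 and 995 on the same arrays. The untreated sum of 9 smooth muscle markers was 866600, 718700, 640500 and 1105000, with arrays 2 and 3 below arrays 1 and 4. Sums of intensities give most weight to the brightest genes, so they do not show the pattern of each gene in a list. EIF2AK2 (PKR), a kinase activated by double-stranded RNA and named here after its values were seen, had log2 ratios of -0.07, 2.31, -0.05 and 1.09, near 0 on both arrays with orexin B in Cy5. GBP1 and GBP2, guanylate-binding proteins named in the same way, were at -1.16 and -0.93 on array 3, below every member gene on that array.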
